A study of Mus musculus with 18 samples.

Results

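Integrins and laminins were measured in the brain tissue around experimental metastases of 3 tumour models. Every gene of the annotated expression table whose symbol named an integrin alpha chain, an integrin beta chain or a laminin alpha, beta or gamma chain was taken, without regard to its level. This gave 37 of 16925 genes, made up of 26 integrin chains (18 alpha and 8 beta) and 11 laminin chains. The 18 libraries were made from brain of WT genotype taken 10 days after an injection of 40000 tumour cells. For the melanoma model (replicates 1 to 6) these were B16-F10-BrM4 cells, a line selected from mouse B16-F10 melanoma for growth in brain. For the breast model (replicates 14 to 19) they were EO771-BrM3 cells, selected in the same way from the mouse mammary carcinoma line EO771. For the lung model (replicates 7 to 11 and 13) they were 482N1 cells, a mouse lung cancer line. Tumour-free brain was not analysed here, so each result is a difference between models, and the 3 contrasts (melanoma over lung, breast over lung and melanoma over breast) share their libraries.

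Integrins are receptors made of an alpha and a beta chain that span the membrane, hold cells to matrix or to other cells and signal to the cytoskeleton through talin and kindlin. Laminins are trimers of an alpha, a beta and a gamma chain, and they form the sheet of the basement membrane to which several integrins bind. In the brain, laminins surround the vessels and line the pial surface, and tumour cells that grow along vessels use beta 1 integrins to hold on to them.

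Depth was 10669355 to 13396710 counts in the melanoma libraries, 7366250 to 13544054 in the breast libraries and 12070005 to 14533877 in the lung libraries. The values below are normalised read counts in CPM on TMM-scaled library sizes, and means are given ± SD of 6 libraries. Where 3 values are given for a model, they are the lowest, the median and the highest of its 6 libraries, and a log2 difference is given ± its SE. Genes of the tumours' lineages were read in the tissue: 6 melanocyte genes summed to 3651 to 22827 CPM in melanoma, 1.35 to 8.27 CPM in breast and 1.58 to 4.07 CPM in lung, and 6 epithelial genes, with Cldn4 at 0 in the melanoma and breast libraries, summed to 4.78 to 5.78 CPM in melanoma, 66.2 to 167 CPM in breast and 309 to 1316 CPM in lung. Neuron markers summed to 2686 to 5018 CPM in melanoma, 2189 to 3298 CPM in breast and 3019.9 to 4159 CPM in lung. Tubb3, one of them, was listed at 0 in every library, while Snap25 averaged 1961 CPM in melanoma, 1492 CPM in breast and 1799 CPM in lung. The 0 of Tubb3 was therefore not read as a lack of neurons, and its cause was not tested. In bulk tissue, fewer cells of a type and less RNA per cell cannot be told apart, and whether tumour or host cells made the RNA of a chain was not tested. Melanoma replicate 3 and breast replicates 18 and 19 were poor in long transcripts relative to the other libraries. The log2 CPM of each gene, less its mean over the 18 libraries, was fitted against log2 exon length. The slopes per doubling of length were -0.192, -0.232 and -0.188 in these 3 libraries, against -0.107 to 0.162 in the others.

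Among the 37 chains, 35 passed the filter on low counts, and Itgam and Itgb6 did not. Of these 35, 25 differed among the models at an adjusted p under 0.05, where 35.8% of the 17174 genes tested did (edgeR quasi-likelihood test with Benjamini-Hochberg adjustment over all genes, as for every adjusted p below). In melanoma over lung, 3 chains were higher and 18 lower, where 8.51% of all genes were higher and 14.7% lower. In melanoma over breast, 3 were higher and 20 lower, where 9.76% of all genes were higher and 19.2% lower. In breast over lung, 5 were higher and 5 lower, where 11.2% of all genes were higher and 7.16% lower. The median log2 difference of the 35 chains was -0.62 in melanoma over lung, -0.01 in breast over lung and -0.96 in melanoma over breast, and that of all genes was 0.02, -0.02 and 0.04. Chains lower in melanoma were more frequent than lower genes at large, and higher chains about as frequent as higher genes at large. Of 6 astrocyte markers, 3 were lower in melanoma than in lung and 4 lower than in breast. Their summed levels were 1454 to 2569.8 CPM in melanoma, 3422 to 4187 CPM in breast and 3179.5 to 5126 CPM in lung. None of the melanoma sums overlapped with the others, but the markers did not move alike. Gfap differed most and weighed heavily in the sums, with means of 349 ± 59.2 CPM in melanoma, 1765 ± 118 CPM in breast and 2013 ± 547 CPM in lung. Slc1a2, the only marker with its highest mean in melanoma, averaged 881 ± 382, 706 ± 251 and 787 ± 256 CPM in the same order and was not called. The part of astrocytes in the levels of the chains was not tested.

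**Figure D1:**
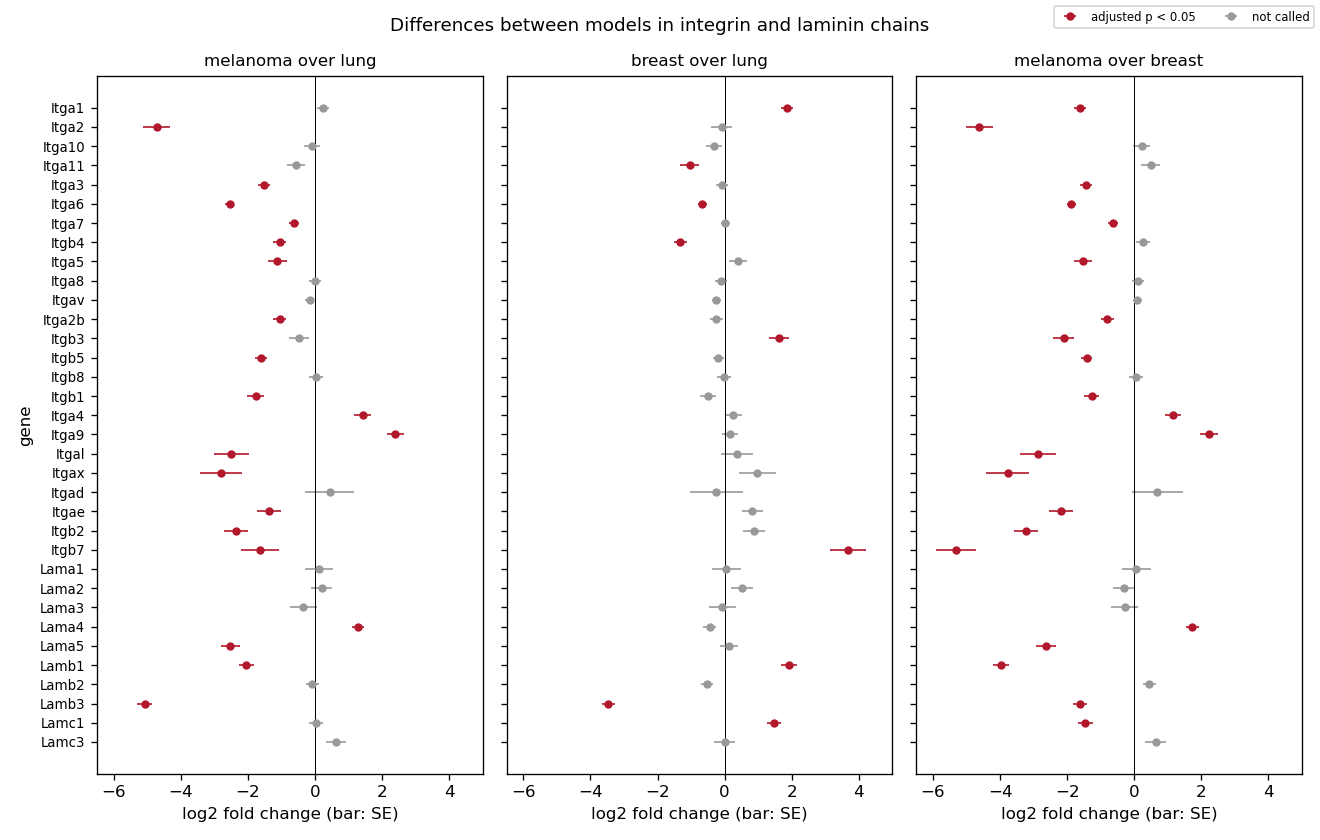
Log2 fold changes (points) with their standard errors (bars) of tested chains in the 3 contrasts, with genes down the page grouped by role. Chains with an adjusted p under 0.05 are red, and most red points lie left of 0 in both melanoma contrasts, while red points lie on both sides in breast over lung.

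Itgb1 encodes the beta 1 chain, which pairs with more alpha chains than any other beta chain and with them binds laminin, collagen and fibronectin. Divided by exon length, its level was the highest of all 37 chains in every model, at 63.2 CPM per kb in melanoma, 153 CPM per kb in breast and 216 CPM per kb in lung. The gene had 151, 246 and 444 CPM in the melanoma libraries, 454, 628 and 830.5 CPM in the breast libraries and 729, 825 and 1091 CPM in the lung libraries. All melanoma libraries lay below all breast and all lung libraries, and melanoma replicate 3, at 444 CPM, was just below the lowest breast library. Itgb1 was 3.42-fold lower in melanoma than in lung, with a log2 difference of -1.77 ± 0.24 (adjusted p = 1.21e-05). It was 2.42-fold lower in melanoma than in breast, with a log2 difference of -1.27 ± 0.24 (adjusted p = 3.23e-04). Breast and lung overlapped, and their log2 difference of -0.50 ± 0.23 (adjusted p = 0.159) was not called.

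The laminin-binding integrins are alpha 3, alpha 6 and alpha 7, which pair with beta 1, and the beta 4 chain, which pairs with alpha 6 and anchors epithelial cells through hemidesmosomes. All 4 were lower in melanoma than in lung, 3 of the 4 were lower in melanoma than in breast, and 2 of the 4 were lower in breast than in lung. Among all genes tested, 14.7%, 19.2% and 7.16% were lower in the same order. Itga6, which endothelium also carries, had 26.6, 32.5 and 34.2 CPM in the melanoma libraries, 87.6, 116 and 143 CPM in the breast libraries and 137, 192 and 215 CPM in the lung libraries. The 6 melanoma libraries were close together and far below the others, and the breast and lung libraries met only at the edge of their ranges. Itga6 was 5.81-fold lower in melanoma than in lung, with a log2 difference of -2.54 ± 0.13 (adjusted p = 5.52e-11), and 3.68-fold lower than in breast, with -1.88 ± 0.13 (adjusted p = 2.60e-09). In breast over lung its log2 difference was -0.66 ± 0.13 (adjusted p = 7.93e-04).

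Itga3 had 13.6, 25.3 and 30.4 CPM in the melanoma libraries, 49.8, 63.7 and 73.9 CPM in the breast libraries and 48.5, 68.7 and 81.1 CPM in the lung libraries. Its melanoma libraries were all below the others, and its breast and lung libraries covered the same range, with log2 differences of -1.52 ± 0.18 (adjusted p = 2.69e-06) in melanoma over lung and -1.44 ± 0.18 (adjusted p = 4.10e-06) in melanoma over breast. Itga7, a chain known from muscle and vessel walls, had 10.5, 13 and 16.3 CPM in the melanoma libraries, 18.5, 21.1 and 23.1 CPM in the breast libraries and 16.7, 18.6 and 28 CPM in the lung libraries. Its melanoma libraries lay below the others by a narrow gap, and the log2 differences were -0.62 ± 0.15 against lung and -0.64 ± 0.15 against breast (adjusted p = 0.00356 and 0.00218). Itgb4 set the lung model apart, with 7.37, 14.5 and 17.7 CPM in the melanoma libraries, 7.69, 10.9 and 15.4 CPM in the breast libraries and 24, 28 and 39 CPM in the lung libraries. Every lung library was above every melanoma and breast library, lung replicate 8 was the highest, and the log2 differences were -1.06 ± 0.20 (adjusted p = 4.01e-04) in melanoma over lung and -1.32 ± 0.20 (adjusted p = 6.71e-05) in breast over lung. The epithelial sum given above was also highest in the lung libraries, and its part in the Itgb4 level was not tested. The exons of Itgb4 share 7.66% of their length with a noncoding gene on the opposite strand, and the sources used here do not say whether the counting used strand.

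The collagen-binding alpha chains are alpha 1, alpha 2, alpha 10 and alpha 11, which all pair with beta 1. Itga2 was almost unread in melanoma, with 54 reads over 6 libraries, and had 0.372, 0.551 and 1.76 CPM in the melanoma libraries, 9.55, 19.5 and 24 CPM in the breast libraries and 8.96, 16.7 and 32.8 CPM in the lung libraries. Melanoma replicate 1 held the highest of the melanoma values and still lay well below the lowest breast and lung libraries. Itga2 was 26.2-fold lower in melanoma than in lung, with a log2 difference of -4.71 ± 0.40 (adjusted p = 4.04e-08), and 24.7-fold lower than in breast, with -4.63 ± 0.40 (adjusted p = 5.03e-08). Breast and lung levels overlapped over most of their ranges, with a log2 difference of -0.09 ± 0.31 (adjusted p = 0.889).

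Itga1 was the collagen receptor chain that stood higher in breast, with 10.7, 15.7 and 19 CPM in the melanoma libraries, 28.4, 47.6 and 65.8 CPM in the breast libraries and 11.2, 13.8 and 15 CPM in the lung libraries. No breast library overlapped with the other models, and the melanoma and lung libraries lay at one level. The log2 difference was 1.85 ± 0.18 (adjusted p = 2.43e-07), a 3.61-fold higher level, in breast over lung. In melanoma over breast it was -1.62 ± 0.18 (adjusted p = 6.80e-07), and in melanoma over lung it was 0.23 ± 0.17 and not called. A stretch of 3.68% of the Itga1 exon length lies in Gm49395 on the same strand, which had no read. Itga11, a chain of fibroblasts, averaged 1.96 ± 0.972 CPM in melanoma, 1.41 ± 0.379 CPM in breast and 2.86 ± 0.541 CPM in lung, and it was called only in breast over lung, at -1.05 ± 0.29 (adjusted p = 0.0138). Itga10, a chain of cartilage, averaged 2.17 ± 0.652 CPM in melanoma, 1.82 ± 0.605 CPM in breast and 2.31 ± 0.579 CPM in lung and was not called in any contrast. A stretch of 33.5% of the Itga10 exon length is shared on the same strand with Gm42957, which had 1 read in all 18 libraries.

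The chains alpha 5, alpha 8, alpha v and alpha IIb bind ligands with the RGD tripeptide, such as fibronectin and vitronectin. Itga5, the fibronectin receptor chain, had 14.6, 30.7 and 47.3 CPM in the melanoma libraries, 62.7, 78.6 and 116 CPM in the breast libraries and 47.7, 66.9 and 83.7 CPM in the lung libraries. The highest melanoma library, replicate 1, came just below the lowest lung library. The log2 differences were -1.12 ± 0.27 (adjusted p = 0.0044) in melanoma over lung and -1.52 ± 0.27 (adjusted p = 2.38e-04) in melanoma over breast. Itga2b, a chain of platelets and megakaryocytes, had 1.57, 2.01 and 2.6 CPM in the melanoma libraries, 2.55, 3.87 and 4.34 CPM in the breast libraries and 3.07, 3.9 and 5.79 CPM in the lung libraries, low levels that overlapped by a narrow margin between melanoma and breast. Its log2 differences were -1.05 ± 0.19 (adjusted p = 3.54e-04) against lung and -0.80 ± 0.20 (adjusted p = 0.00381) against breast, and a list of 5 platelet markers summed to 0.392 to 1.58 CPM in melanoma, 1.57 to 2.87 CPM in breast and 0.7 to 2.1 CPM in lung. Whether platelets left in the vessels set the Itga2b level was not tested.

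Itgav, the alpha v chain shared by several beta chains, was not called in any contrast. It averaged 122 ± 23.2 CPM in melanoma, 115 ± 14.4 CPM in breast and 136 ± 20.7 CPM in lung, with the libraries of the 3 models in one range. Itga8, a chain of smooth muscle and mesenchymal cells, averaged 5.05 ± 1.18 CPM in melanoma, 4.62 ± 0.845 CPM in breast and 5.04 ± 0.94 CPM in lung and was not called either.

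Of the beta chains that pair with alpha v, 3 were tested and 2 of them, Itgb3 and Itgb5, were called. Itgb3, a chain of platelets, activated endothelium and several tumours, had 8.34, 12.1 and 39.6 CPM in the melanoma libraries, 53.9, 70.3 and 97.3 CPM in the breast libraries and 17.1, 25.1 and 26.9 CPM in the lung libraries. All breast libraries were above all others, melanoma replicate 1 was above every lung library, and the other 5 melanoma libraries reached at most 18.5 CPM. Itgb3 was 3.08-fold higher in breast than in lung, with a log2 difference of 1.62 ± 0.30 (adjusted p = 5.91e-04), and its log2 difference was -2.11 ± 0.31 (adjusted p = 2.24e-05) in melanoma over breast. In melanoma over lung it was -0.49 ± 0.30 (adjusted p = 0.296), and without melanoma replicate 1 it was -0.94 and called (adjusted p = 0.00216).

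Itgb5 had 29.6, 46.6 and 62.1 CPM in the melanoma libraries, 93.2, 130.3 and 167 CPM in the breast libraries and 124, 142 and 172 CPM in the lung libraries. Its melanoma libraries were all lower than the rest, and breast and lung overlapped. The log2 differences were -1.61 ± 0.18 (adjusted p = 8.34e-07) in melanoma over lung and -1.42 ± 0.17 (adjusted p = 2.98e-06) in melanoma over breast. Itgb8, known in brain for the activation of TGF-beta by astrocytes and neural progenitors, averaged 63.2 ± 19.4 CPM in melanoma, 61.2 ± 10.8 CPM in breast and 61.6 ± 15.3 CPM in lung, and its 3 log2 differences lay between -0.01 and 0.04. Itgb6, a chain of epithelium, did not pass the filter, with 0 to 1 reads per library in melanoma, 0 to 7 in breast and 6 to 17 in lung. Breast replicate 15, with 7 reads, reached the lung range, and no test was made.

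**Figure D2:**
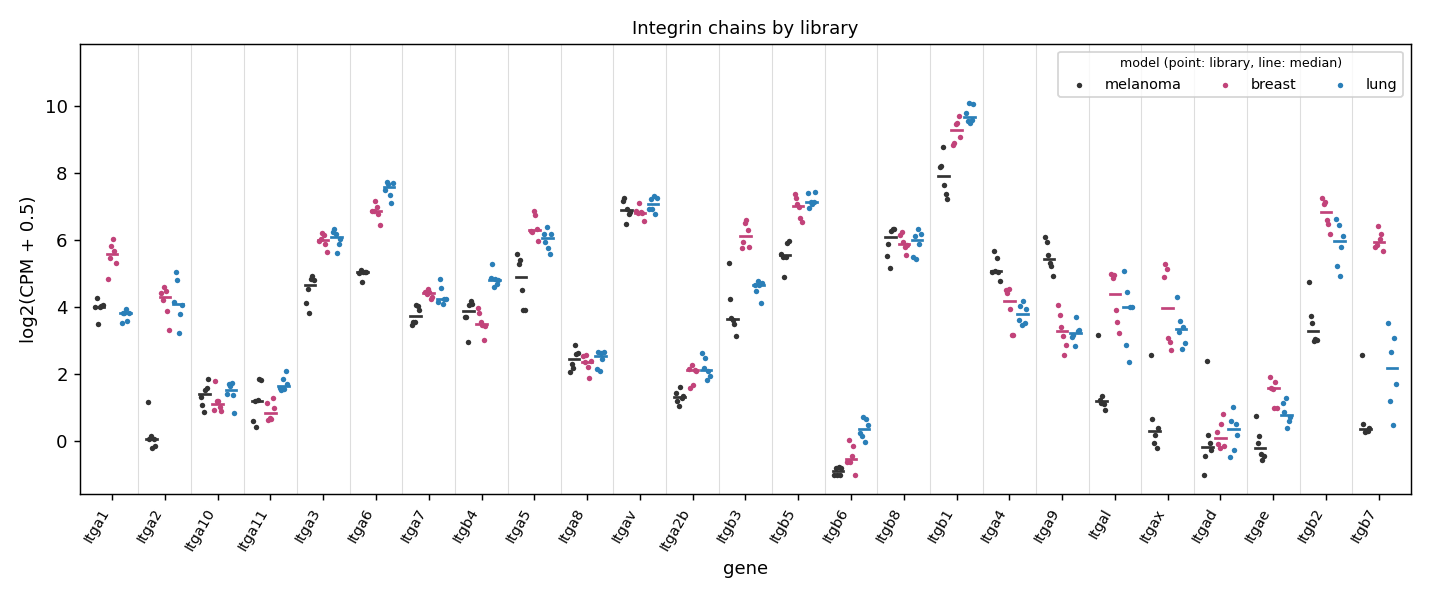
Levels of 25 integrin chains as log2(CPM + 0.5) in each of 18 libraries (points) with the median of each model (line), grouped by role from left to right, melanoma in black, breast in magenta and lung in blue. Melanoma points are the lowest for Itga2, Itga3, Itga6, Itgb1 and Itgb5 and the highest for Itga4 and Itga9.

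The alpha 4 and alpha 9 chains form a small subfamily of integrins that bind VCAM1, fibronectin, osteopontin and tenascin, and both pair with beta 1. They were the 2 integrin chains higher in melanoma than in both other models. Itga9 had 30.4, 43.4 and 68.5 CPM in the melanoma libraries, 5.45, 9.27 and 16.1 CPM in the breast libraries and 6.65, 8.86 and 12.5 CPM in the lung libraries. The lowest melanoma library was above the highest library of the other models, and breast and lung covered the same range. Itga9 was 5.23-fold higher in melanoma than in lung, with a log2 difference of 2.39 ± 0.26 (adjusted p = 7.06e-07), and 4.68-fold higher than in breast, with 2.23 ± 0.25 (adjusted p = 1.32e-06).

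Itga4, which leukocytes and neural crest derivatives carry, had 26.8, 33.2 and 51.3 CPM in the melanoma libraries, 8.46, 18 and 22.7 CPM in the breast libraries and 10.7, 13.5 and 17.9 CPM in the lung libraries. Again no melanoma library overlapped with the others, and melanoma replicate 2 was the highest. The log2 difference was 1.42 ± 0.25 (adjusted p = 2.11e-04) in melanoma over lung and 1.16 ± 0.25 (adjusted p = 0.00116) in melanoma over breast. In breast over lung it was 0.26 ± 0.25 (adjusted p = 0.533). The exons of Itga4 share 8.04% of their length with Cerkl on the opposite strand, and Cerkl had 599 reads in all against 4920 for Itga4.

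Within the melanoma model Itga9, Itga4 and Itgb1 were set beside the pigment genes, library by library. From replicate 1 to replicate 6 as numbered, the melanocyte sum was 14824, 13339, 22827, 7047, 4523 and 3651 CPM. Itga9 in the same libraries was 68.5, 61.9, 47, 39.9, 37.3 and 30.4 CPM, Itga4 was 32.9, 51.3, 33.4, 43.8, 32.8 and 26.8 CPM, and Itgb1 was 292, 294, 444, 201, 166 and 151 CPM. Replicates 4, 5 and 6 had the lowest melanocyte sums and the lowest levels of Itga9 and Itgb1, while replicate 3, with the highest melanocyte sum, had the highest Itgb1 and a middle level of Itga9. Itga4 did not follow this order, since replicate 4 had its second highest level and replicate 3 a middle one. Replicate 3 was also poor in long transcripts, and the part of tumour RNA in these levels was not tested.

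The promoters of Itga9 and Itga4 are printed because their levels set the melanoma model apart. Each runs 5′ to 3′ on the strand of the gene, covers 250 bases before and 50 after the annotated start, and is taken from RefSeq on build GRCm38.p6 (Itga9 at chr9:118711442-118711741, plus strand, and Itga4 at chr2:79255176-79255475, plus strand). Capitals mark matches to 5 motifs searched on both strands: the E-box CACGTG, the AP-1 site TGANTCA, the GC box GGGCGG, the PU.1 core GAGGAA and the TATA box TATAAA.
Itga9: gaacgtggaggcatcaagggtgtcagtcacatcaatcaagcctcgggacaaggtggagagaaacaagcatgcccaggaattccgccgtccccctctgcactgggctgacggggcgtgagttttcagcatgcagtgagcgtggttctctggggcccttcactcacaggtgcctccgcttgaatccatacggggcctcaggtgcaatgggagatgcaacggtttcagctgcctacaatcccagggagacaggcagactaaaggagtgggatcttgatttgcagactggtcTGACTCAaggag
Itga4: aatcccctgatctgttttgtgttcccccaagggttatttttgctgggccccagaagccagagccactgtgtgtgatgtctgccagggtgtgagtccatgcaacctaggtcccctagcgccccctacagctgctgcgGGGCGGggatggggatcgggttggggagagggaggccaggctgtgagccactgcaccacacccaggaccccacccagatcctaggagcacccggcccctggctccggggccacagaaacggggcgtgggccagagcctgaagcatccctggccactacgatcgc
The Itga9 window held an AP-1 match 38 bases after the start, and the Itga4 window held a GC box 114 bases before it. Of all 32851 promoters of this length, 7.81% held an AP-1 match, 35.7% a GC box, 28.3% a PU.1 core, 13.6% a TATA box and 7.15% an E-box, the letters of the site that MITF can bind. These matches describe the letters of the windows and say nothing of what binds there.

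The leukocyte integrins are the beta 2 chain with its partners alpha L, alpha M, alpha X and alpha D, and the beta 7 chain with alpha 4 or alpha E. They help leukocytes cross vessel walls and bind complement fragments and E-cadherin. Of the 6 that were tested, 5 were lower in melanoma than in lung, the same number were lower in melanoma than in breast, and 1 was higher in breast than in lung. Among all genes tested, 14.7% and 19.2% were lower in these melanoma contrasts and 11.2% were higher in breast over lung. Itgb2, which microglia and blood leukocytes share, had 7.53, 9.38 and 26.7 CPM in the melanoma libraries, 72.9, 116 and 155 CPM in the breast libraries and 30.2, 62.6 and 98 CPM in the lung libraries. Melanoma was below both other models in every library, and melanoma replicate 1, the highest of the 6, stood at 26.7 CPM. Itgb2 was 5.12-fold lower in melanoma than in lung, with a log2 difference of -2.36 ± 0.35 (adjusted p = 3.53e-05), and 9.34-fold lower than in breast, with -3.22 ± 0.36 (adjusted p = 9.78e-07). In breast over lung it was 0.87 ± 0.33 (adjusted p = 0.0778), short of the threshold.

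Itgal, the alpha chain of LFA-1 on lymphocytes and myeloid cells, had 1.4, 1.8 and 8.46 CPM in the melanoma libraries, 9.01, 21.8 and 31.1 CPM in the breast libraries and 4.65, 15.8 and 33.7 CPM in the lung libraries. Melanoma replicate 1 lay above lung replicates 8 and 10, and the other 5 melanoma libraries lay below every library of the other models. The log2 difference was -2.49 ± 0.53 (adjusted p = 0.00141) in melanoma over lung and -2.86 ± 0.53 (adjusted p = 3.47e-04) in melanoma over breast, and without melanoma replicate 1 these were -3.22 and -3.59.

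Itgax, the CD11c chain of dendritic cells and reactive microglia, had 0.371, 0.738 and 5.44 CPM in the melanoma libraries, 6.14, 18.6 and 38.8 CPM in the breast libraries and 6.31, 9.64 and 19.5 CPM in the lung libraries. The melanoma libraries were lower than all others, with replicate 1 closest to them. Its log2 difference was -2.80 ± 0.63 (adjusted p = 0.00226) in melanoma over lung and -3.77 ± 0.64 (adjusted p = 1.27e-04) in melanoma over breast, and it was -3.93 and -4.90 without melanoma replicate 1. Itgae, the CD103 chain of resident T cells and some dendritic cells, had 0.185, 0.373 and 1.18 CPM in the melanoma libraries, 1.5, 2.51 and 3.31 CPM in the breast libraries and 0.83, 1.23 and 1.97 CPM in the lung libraries, from 38, 160 and 105 reads in melanoma, breast and lung. Melanoma replicate 1 overlapped with the lung range but not with the breast range. The log2 differences of Itgae were -1.37 ± 0.37 (adjusted p = 0.00927) against lung and -2.20 ± 0.36 (adjusted p = 7.75e-05) against breast.

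Itgb7, the beta chain of gut-homing lymphocytes, mast cells and some myeloid cells, stood out in the breast model. It had 0.705, 0.784 and 5.51 CPM in the melanoma libraries, 50.9, 61.4 and 86.4 CPM in the breast libraries and 0.913, 4.31 and 11.1 CPM in the lung libraries. The lowest breast library was above the highest lung library by a wide margin, the lung libraries were spread, and 5 of the 6 melanoma libraries lay under 1 CPM. Itgb7 was 12.7-fold higher in breast than in lung, with a log2 difference of 3.67 ± 0.54 (adjusted p = 5.22e-05), and 39.7-fold lower in melanoma than in breast, with -5.31 ± 0.60 (adjusted p = 1.14e-06). In melanoma over lung it was -1.65 ± 0.57 (adjusted p = 0.043), the single member call that other settings lost. Without melanoma replicate 1 the log2 difference against lung was -2.67 and that against breast -6.33.

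Itgad averaged 1.08 ± 1.83 CPM in melanoma, 0.691 ± 0.354 CPM in breast and 0.788 ± 0.491 CPM in lung and was not called, and melanoma replicate 3 held 4.78 CPM while the other 5 melanoma libraries had at most 0.651 CPM. The exons of Itgad overlap with those of 3 genes on the opposite strand, Cox6a2 among them. Cox6a2 shares 1.55% of the Itgad exon length and had 1094 reads in all, against 187 for Itgad. The pseudogene Gm17831 shares 7.32% on the same strand and had 2 reads. Itgam, the CD11b chain that defines microglia and myeloid cells, was listed at 0 in all 18 libraries of both deposited tables. In the annotation used here 68.7% of its exon length lies on the same strand in Gm49368, which had 33 reads in all, and the level of Itgam cannot be read from these files.

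Markers of cells known to carry these chains were set beside the leukocyte integrins. Summed levels of 7 microglia markers were 278 to 373 CPM in melanoma, 762 to 933 CPM in breast and 757 to 1068 CPM in lung, and 6 of the 7 were lower in melanoma than in lung and 5 lower than in breast. For 7 markers of border macrophages and monocytes they were 11.8 to 49.1 CPM in melanoma, 178 to 296 CPM in breast and 62.1 to 208 CPM in lung, with 6 lower in each of the melanoma contrasts. Neutrophil markers summed to 0.294 to 1.73 CPM in melanoma, 58.1 to 262 CPM in breast and 4.9 to 149.8 CPM in lung, with 4 of 5 tested lower in melanoma than in lung and all 5 lower than in breast. T and NK cell markers summed to 5.56 to 19.6 CPM in melanoma, 13.6 to 39.3 CPM in breast and 9.13 to 18.4 CPM in lung, with 4 of 6 lower in melanoma than in breast. Of these 6, 0 were lower in melanoma than in lung by edgeR, also at an unadjusted p under 0.05, by DESeq2 and by limma. No marker of these 4 lists was at 0 throughout a model. The part of these cells in the integrin levels was not tested.

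Libraries within a model were then compared. Melanoma replicate 1 had the highest border macrophage and T cell sums of its model and the highest Itgb2, Itgal, Itgax, Itgae and Itgb7, but the lowest neutrophil sum, at 0.294 CPM. Lung replicates 8 and 10 had the lowest border macrophage and neutrophil sums of their model and the lowest Itgb2, Itgal and Itgb7. Without these 3 libraries, a comparison chosen with earlier results known, the log2 differences in melanoma over lung were -3.63 for Itgal, -4.11 for Itgax, -3.05 for Itgb2, -1.96 for Itgae and -3.11 for Itgb7, each farther from 0 than with all 18 libraries. Leaving out the highest melanoma library and lung libraries low in these chains widens such differences by construction.

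The 6 breast libraries also differed among themselves. For replicates 14 to 19 as numbered, Itgal was 31.1, 28.9, 30.5, 14.7, 11.3 and 9.01 CPM and Itgax was 29.2, 38.8, 34.7, 8.04, 7.27 and 6.14 CPM. The T and NK cell sum in the same order was 39.3, 36.4, 33.2, 13.6, 16.6 and 15.6 CPM, and the neutrophil sum was 75.4, 58.1, 118, 231, 262 and 124 CPM. Replicates 14, 15 and 16 had the higher Itgal, Itgax and T cell values, while replicates 17, 18 and 19 had the higher neutrophil values. The neutrophil sums of replicates 16 and 19 were close, at 118 and 124 CPM. Replicates 18 and 19 were the shallowest libraries, at 7366250 and 7432159 counts, and were poor in long transcripts. The part of depth and of transcript length in this split was not tested. Itgb7, at 55.4, 57.5, 86.4, 65.2, 72.4 and 50.9 CPM, followed neither order. The labels give no batch for these libraries.

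**Figure D3:**
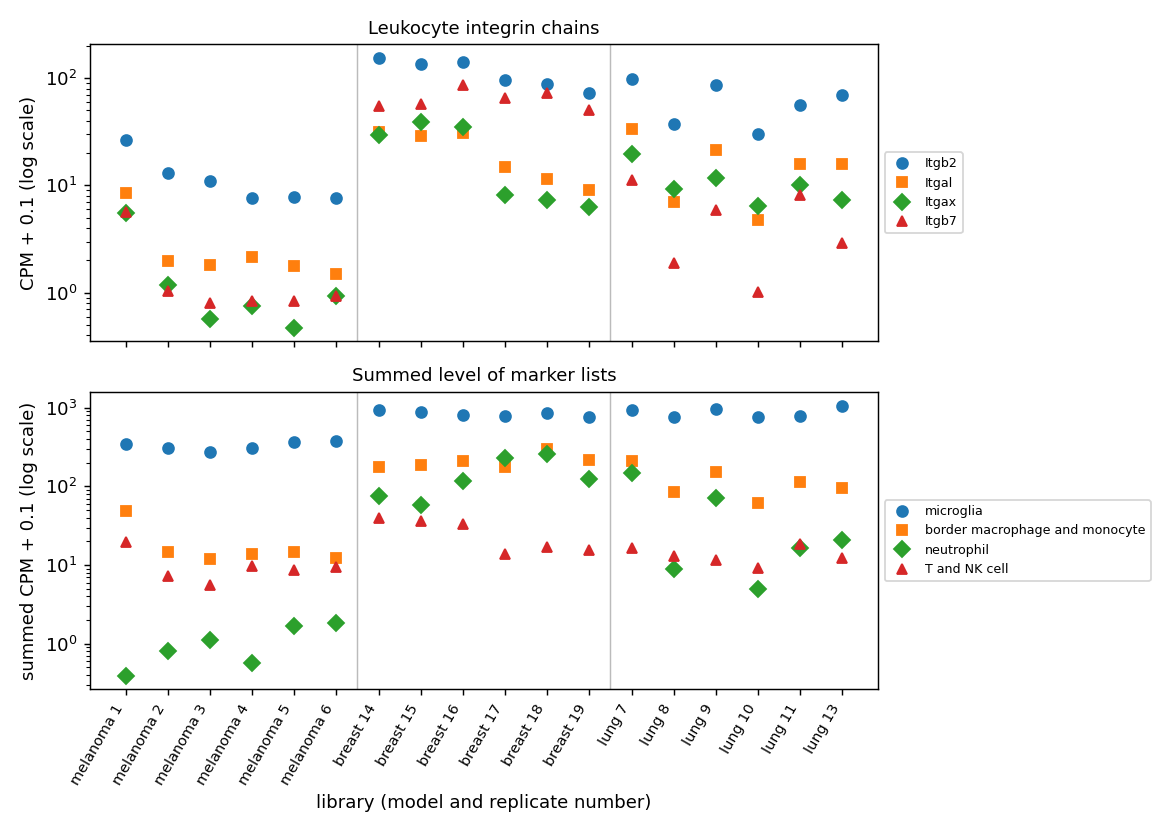
CPM + 0.1 on a log axis of 4 leukocyte integrin chains (upper panel) and summed CPM + 0.1 of 4 lists of leukocyte markers (lower panel) in each of the 18 libraries, melanoma at the left, then breast, then lung. Melanoma replicate 1 stands above the other melanoma libraries for all 4 chains, and Itgb7 is above 50 CPM in every breast library.

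Itgb7 and Itga1 are printed as the integrin chains higher in breast than in both other models that had an entry in the promoter table (Itgb7 at chr15:102231886-102232185, minus strand, and Itga1 at chr13:115101915-115102214, minus strand).
Itgb7: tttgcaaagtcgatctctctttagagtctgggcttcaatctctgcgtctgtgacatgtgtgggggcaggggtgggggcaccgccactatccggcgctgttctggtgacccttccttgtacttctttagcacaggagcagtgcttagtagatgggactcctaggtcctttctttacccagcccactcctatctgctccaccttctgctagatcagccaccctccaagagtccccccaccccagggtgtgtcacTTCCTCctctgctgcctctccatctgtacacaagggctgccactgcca
Itga1: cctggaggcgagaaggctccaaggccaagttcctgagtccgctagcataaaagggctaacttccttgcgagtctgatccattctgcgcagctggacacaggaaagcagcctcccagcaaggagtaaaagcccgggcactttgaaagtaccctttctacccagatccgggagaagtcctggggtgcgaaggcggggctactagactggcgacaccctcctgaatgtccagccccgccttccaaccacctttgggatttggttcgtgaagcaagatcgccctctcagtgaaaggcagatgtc
The Itgb7 window held a PU.1 core on the other strand, 2 bases after the start, and the Itga1 window held none of the 5 motifs.

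Among the laminin alpha chains, Lama4 was higher and Lama5 lower in melanoma than in both other models, and the other 3 were not called. Lama4, a chain of vessel basement membranes and of mesenchymal cells, had 23.9, 32.7 and 41 CPM in the melanoma libraries, 5.59, 11.2 and 12.4 CPM in the breast libraries and 11, 13.6 and 15.8 CPM in the lung libraries. Every melanoma library was above every other library. Lama4 was 2.44-fold higher in melanoma than in lung, with a log2 difference of 1.29 ± 0.19 (adjusted p = 2.98e-05), and 3.32-fold higher than in breast, with 1.73 ± 0.19 (adjusted p = 8.67e-07).

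Lama5, the other alpha chain of mature brain vessels and a chain of epithelial basement membranes, had 3.06, 10.7 and 11.6 CPM in the melanoma libraries, 32.8, 52.8 and 89.2 CPM in the breast libraries and 41.5, 52 and 71.5 CPM in the lung libraries. Melanoma lay far below the rest in all 6 libraries, with the lowest value in replicate 3, and breast and lung overlapped. Lama5 was 5.73-fold lower in melanoma than in lung, with a log2 difference of -2.52 ± 0.29 (adjusted p = 1.71e-06), and 6.23-fold lower than in breast, with -2.64 ± 0.29 (adjusted p = 8.42e-07). Endothelial markers summed to 139 to 245 CPM in melanoma, 232 to 293 CPM in breast and 226 to 267 CPM in lung, with 2 of 6 lower in melanoma in each of its contrasts, and pericyte and smooth muscle markers to 147 to 218 CPM in melanoma, 150.5 to 205 CPM in breast and 128 to 203 CPM in lung. The part of vessel content in Lama4 and Lama5 was not tested.

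Lama2, the chain of muscle, pericytes and astrocyte endfeet, averaged 11.2 ± 4.36 CPM in melanoma, 13.9 ± 4.62 CPM in breast and 9.79 ± 4.12 CPM in lung. Lama1, the chain of the pial and embryonic basement membrane, averaged 2.99 ± 1.85 CPM in melanoma, 2.78 ± 1.27 CPM in breast and 2.76 ± 1.25 CPM in lung, and Lama3, the epithelial chain, averaged 3.18 ± 1.28 CPM in melanoma, 3.79 ± 1.29 CPM in breast and 4.04 ± 3.15 CPM in lung. The libraries of the 3 models overlapped for each, and adjusted p values over the 3 contrasts were 0.304 to 0.734 for Lama2, 0.894 to 0.954 for Lama1 and 0.626 to 0.939 for Lama3.

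The beta and gamma chains are given by the trimers they enter. Lamb1 and Lamc1, the beta 1 and gamma 1 chains of most laminins, were highest in breast. Lamb1 had 7.37, 20.8 and 22.5 CPM in the melanoma libraries, 203, 256 and 401 CPM in the breast libraries and 67.5, 75.9 and 90.0 CPM in the lung libraries, with no overlap between any of the models. Its log2 difference was 1.92 ± 0.23 (adjusted p = 4.13e-06) in breast over lung, -3.97 ± 0.25 (adjusted p = 7.80e-10) in melanoma over breast and -2.05 ± 0.23 (adjusted p = 1.42e-06) in melanoma over lung, so that melanoma was 15.7-fold below breast.

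Lamc1 had 38.2, 64 and 86 CPM in the melanoma libraries, 117, 164 and 247 CPM in the breast libraries and 50.2, 67.7 and 74.2 CPM in the lung libraries. Its breast libraries were all above the others, and melanoma and lung covered the same range. Lamc1 was 2.77-fold higher in breast than in lung, with a log2 difference of 1.47 ± 0.21 (adjusted p = 4.61e-05), and the difference was -1.46 ± 0.21 (adjusted p = 2.56e-05) in melanoma over breast. Lamb1 and Lamc1 were the highest laminin chains per exon length in breast, at 29.1 and 21.4 CPM per kb, while Lamc1 was the highest laminin chain in melanoma, at 7.8 CPM per kb.

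Lamb3, the beta 3 chain, which joins alpha 3 in the laminin of epithelial anchoring, was highest in lung. It had 1.79, 3.28 and 3.76 CPM in the melanoma libraries, 6.28, 8.7 and 12.5 CPM in the breast libraries and 73.1, 106 and 119.6 CPM in the lung libraries. No 2 models overlapped, and the lung libraries were far above the others. Lamb3 was 33.8-fold lower in melanoma than in lung, with a log2 difference of -5.08 ± 0.22 (adjusted p = 5.43e-12), and 11-fold lower in breast than in lung, with -3.47 ± 0.20 (adjusted p = 2.25e-10). In melanoma over breast it was -1.61 ± 0.20 (adjusted p = 3.60e-06). Per exon length Lamb3 was the highest laminin chain of the lung model, at 15.4 CPM per kb, against 0.376 CPM per kb for its partner Lama3.

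Of 5 epithelial markers tested, 5 were lower in melanoma than in lung and 4 lower in breast than in lung. From replicate 7 to 13 as numbered, the epithelial sum of the lung libraries was 1096, 897, 1316, 309, 684 and 589 CPM, and Lamb3 was 93.2, 119.6, 115, 106, 73.1 and 105 CPM. The lowest epithelial sum was in replicate 10 and the lowest Lamb3 in replicate 11. The part of epithelial tumour RNA in the level of Lamb3 was not tested.

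Lamb2, the beta 2 chain of mature vessel basement membranes, averaged 40.4 ± 9.15 CPM in melanoma, 29.5 ± 7.68 CPM in breast and 42.7 ± 7.66 CPM in lung. It was not called, with log2 differences of -0.53 ± 0.19 (adjusted p = 0.0595) in breast over lung and 0.45 ± 0.19 (adjusted p = 0.0866) in melanoma over breast, and it passed the threshold in some other settings. Lamc3, a gamma chain known from brain and retina, averaged 5.66 ± 1.9 CPM in melanoma, 3.57 ± 1.67 CPM in breast and 3.65 ± 1.1 CPM in lung and was not called, with 0.63 ± 0.30 (adjusted p = 0.154) in melanoma over lung.

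**Figure D4:**
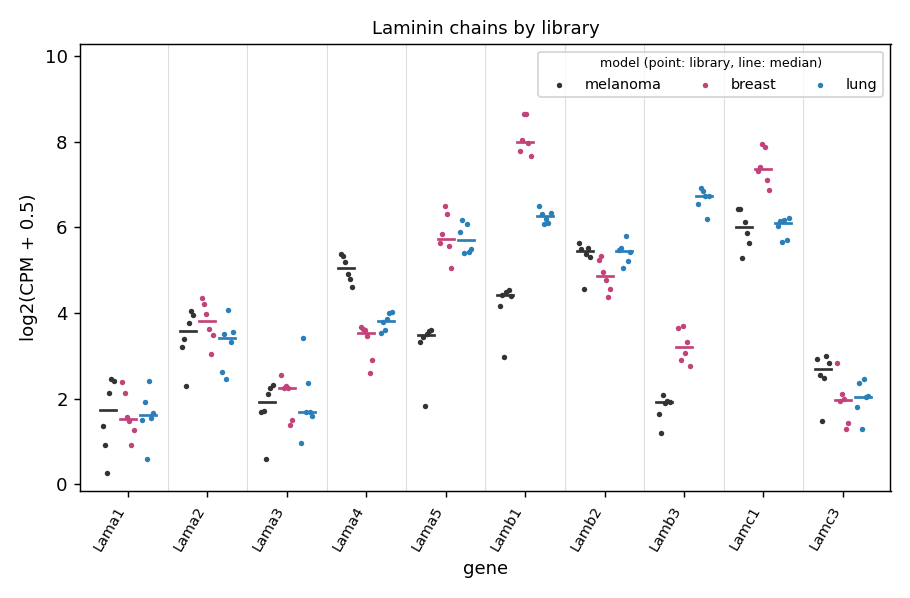
Levels of 10 laminin chains as log2(CPM + 0.5) in each of 18 libraries (points) with the median of each model (line), melanoma in black, breast in magenta and lung in blue. Lamb1 and Lamc1 are highest in the breast libraries, Lamb3 in the lung libraries and Lama4 in the melanoma libraries.

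Lamb1 and Lamb3 are printed as beta chains that stood apart from both other models, Lamb1 higher in breast and Lamb3 higher in lung (Lamb1 at chr12:31265043-31265342, plus strand, and Lamb3 at chr1:193301744-193302043, plus strand, the first of its 2 annotated starts).
Lamb1: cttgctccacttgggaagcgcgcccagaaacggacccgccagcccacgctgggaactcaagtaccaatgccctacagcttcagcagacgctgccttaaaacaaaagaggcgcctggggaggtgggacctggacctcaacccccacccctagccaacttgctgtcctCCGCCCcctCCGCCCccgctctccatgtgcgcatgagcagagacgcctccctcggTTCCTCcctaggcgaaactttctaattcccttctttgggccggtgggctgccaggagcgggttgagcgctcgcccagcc
Lamb3: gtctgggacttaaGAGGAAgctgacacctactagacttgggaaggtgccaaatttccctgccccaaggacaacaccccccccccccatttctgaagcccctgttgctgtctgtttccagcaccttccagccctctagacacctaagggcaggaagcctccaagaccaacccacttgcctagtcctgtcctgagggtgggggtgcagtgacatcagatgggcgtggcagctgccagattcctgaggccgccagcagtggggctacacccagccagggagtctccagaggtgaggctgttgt
The Lamb1 window held 2 GC boxes 84 and 75 bases before the start and a PU.1 core 29 bases before it, all on the other strand, while the Lamb3 window held a PU.1 core 237 bases before its start. Of the 37 members 23 had an entry, and the median GC content of their 26 windows was 58.8%, against 52.7% for all promoters.

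The levels of the chains per exon length set them in an order within each model. In melanoma, Itgb1 was followed by Itgb5 at 13.6, Itgav at 11.4, Lamc1 at 7.8, Lamb2 at 6.63 and Itga9 at 6.17 CPM per kb. In breast, Itgb2 at 37.6 and Itgb5 at 36.4 came next and lay close together, followed by Lamb1 at 29.1, Itgb7 at 23.3 and Lamc1 at 21.4 CPM per kb. In lung, Itgb5 at 41.5 was followed by Itgb2 at 20.6 and Itga6 at 20.5, which were near each other, and by Lamb3 at 15.4 CPM per kb. Itga9 had rank 6 among the 37 chains in melanoma, rank 23 in breast and rank 22 in lung.

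Adaptors that activate integrins or link them to actin were counted from a list of 28 genes, of which 27 were tested. In melanoma over lung 2 were higher and 11 lower, in breast over lung 4 were higher and 2 lower, and in melanoma over breast 0 were higher and 13 lower. Of all genes, 8.51% were higher and 14.7% lower, 11.2% and 7.16%, and 9.76% and 19.2% in the same order. The adaptor counts in breast over lung lay near these shares. At an unadjusted p under 0.05 melanoma over breast had 1 higher adaptor by edgeR, and at an adjusted one it had 2 by DESeq2 and 0 by limma. The median log2 difference of the list was -0.25, 0.11 and -0.50 in these contrasts, beside the medians of all genes given above. Without melanoma replicate 3 and breast replicates 18 and 19, 10 adaptors were called in breast over lung, against 6 with all libraries, while calls over all genes were 4357 of 17402, against 3149 of 17174.

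Apbb1ip, which recruits talin in leukocytes, averaged 8.11 ± 2.58 CPM in melanoma, 66.4 ± 15.6 CPM in breast and 20.3 ± 3.92 CPM in lung, and its log2 differences were 1.71 ± 0.19 (adjusted p = 2.53e-06) in breast over lung and -3.03 ± 0.21 (adjusted p = 2.17e-09) in melanoma over breast. Fermt3, the kindlin of blood cells, averaged 5.54 ± 2.56 CPM in melanoma, 41.6 ± 5.05 CPM in breast and 31.4 ± 12.4 CPM in lung, with -2.50 ± 0.27 (adjusted p = 7.46e-07) in melanoma over lung. Parvg, the parvin of blood cells, averaged 5.86 ± 1.19 CPM in melanoma, 20.5 ± 5.17 CPM in breast and 22.4 ± 6.22 CPM in lung, and Vcl, the vinculin of focal adhesions, averaged 38.3 ± 6.81 CPM in melanoma, 54.5 ± 10.1 CPM in breast and 116 ± 21.3 CPM in lung. These were the 4 adaptors with the smallest p for a difference among models, and 3 of them are known from leukocytes. Of the leukocyte markers tested, calls in breast over lung were 2 higher and 1 lower of 7 for border macrophages and monocytes, 1 higher of 5 for neutrophils, and 0 of 7 for microglia and 0 of 6 for T and NK cells by edgeR. At an unadjusted p under 0.05, 1 microglia marker was lower and 4 T and NK cell markers higher in breast than in lung, while limma with voom called 1 T and NK cell marker higher and DESeq2 and limma on CPM called 0 in both lists. The part of leukocytes in the adaptor levels was not tested.

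Ligands other than laminins were counted from 28 genes, of which 23 were tested. The list also took in Ltbp1, Nrros and Lrrc32, which hold latent TGF-beta, so its counts are not of integrin ligands alone. In melanoma over lung 1 was higher and 17 lower, in breast over lung 2 were higher and 11 lower, and in melanoma over breast 1 was higher and 12 lower. Of all genes, 8.51% were higher and 14.7% lower, 11.2% and 7.16%, and 9.76% and 19.2% in the same order. The list's median log2 difference was -2.86, -0.81 and -0.83. Thbs1, the matrix protein thrombospondin 1, averaged 3.48 ± 1.37 CPM in melanoma, 54.4 ± 15.1 CPM in breast and 312 ± 90.9 CPM in lung, so that melanoma lay 89.6-fold below lung, with a log2 difference of -6.49 ± 0.35 (adjusted p = 6.98e-11). Npnt, a ligand of alpha 8 beta 1, averaged 22.4 ± 4.89 CPM in melanoma, 21.3 ± 6.68 CPM in breast and 245 ± 49 CPM in lung, with -3.45 ± 0.22 (adjusted p = 8.06e-10) in melanoma over lung and -3.52 ± 0.22 (adjusted p = 9.19e-10) in breast over lung.

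Cdh1, the E-cadherin that alpha E beta 7 binds and a protein of epithelium, averaged 2.21 ± 0.598 CPM in melanoma, 2.75 ± 0.613 CPM in breast and 71.6 ± 24.5 CPM in lung. Ltbp1, which holds latent TGF-beta in the matrix, averaged 4.44 ± 1.73 CPM in melanoma, 31.9 ± 7.84 CPM in breast and 107 ± 22 CPM in lung. Both were lower in melanoma and in breast than in lung, with log2 differences of -4.70 ± 0.26 (adjusted p = 1.22e-10) for Cdh1 and -1.74 ± 0.23 (adjusted p = 1.81e-05) for Ltbp1 in breast over lung. Fibroblast markers, 6 matrix and stromal genes, summed to 74.5 to 175 CPM in melanoma, 218 to 297 CPM in breast and 205 to 1592 CPM in lung. From replicate 7 to 13 as numbered, the lung sums were 878, 205, 344, 357, 1592 and 252 CPM. Of the 6 fibroblast markers, 5 were lower in melanoma than in lung, and in breast over lung 4 were lower and 1 higher. The higher gene was Pdgfra, also a marker of the oligodendrocyte lineage, which averaged 155 ± 31.8 CPM in breast and 44.8 ± 8.73 CPM in lung. Col1a1 and Col1a2 belong to both the fibroblast and the ligand list. Cdh1 is also in the epithelial list and Vtn in the pericyte and smooth muscle list. The ligand list is therefore not independent of these marker lists. The part of fibroblasts in the ligand levels was not tested.

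Basement membrane partners and laminin receptors other than integrins were counted from 26 genes, of which 24 were tested. In melanoma over lung 2 were higher and 8 lower, in breast over lung 4 were higher and 3 lower, and in melanoma over breast 4 were higher and 7 lower. Of all genes, 8.51% were higher and 14.7% lower, 11.2% and 7.16%, and 9.76% and 19.2% in the same order. The medians of the list were -0.29, 0.06 and -0.28. Nid1, the nidogen that ties the laminin gamma 1 chain to collagen IV, averaged 18.3 ± 4.4 CPM in melanoma, 224 ± 74.2 CPM in breast and 26.8 ± 3.42 CPM in lung. It was 8.34-fold higher in breast than in lung, with a log2 difference of 3.06 ± 0.22 (adjusted p = 4.30e-09), and its -0.55 in melanoma over lung was not called (adjusted p = 0.0583).

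Col18a1, the collagen of vessel basement membranes that yields endostatin, averaged 12 ± 1.56 CPM in melanoma, 143 ± 53.2 CPM in breast and 81.1 ± 12.1 CPM in lung, with -3.58 ± 0.23 (adjusted p = 9.66e-10) in melanoma over breast. Smoc2 and Sdc2, a matricellular protein and the syndecan 2 core protein, were higher in lung. Smoc2 averaged 9.01 ± 1.97 CPM in melanoma, 11.1 ± 1.07 CPM in breast and 53.4 ± 12.5 CPM in lung, and Sdc2 averaged 70.2 ± 3.48 CPM in melanoma, 78.3 ± 8.25 CPM in breast and 149 ± 15.9 CPM in lung, with log2 differences in melanoma over lung of -2.57 ± 0.17 (adjusted p = 1.18e-09) and -1.09 ± 0.10 (adjusted p = 5.16e-08).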

How the data were processed

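Poly(A)+ RNA of the peritumoral brain was made into directional libraries (antisense orientation) with the NEBNext Ultra II kit from 1 µg of RNA, per the labels' protocols. The submitters' processing notes name bcl2fastq and build GRCm39, while no aligner, counter, annotation or strand setting is given in the sources used here. Raw counts per Ensembl gene without normalization, 1 column per library, were deposited by the authors, as the whole-number values show. The authors also deposited CPM for 16925 genes under upper-case symbols, from which 100% of values came out as whole reads (tolerance 0.01) and 99.8% of those matched, and all member values, equalled the counts. Symbols (94.0% of 55416 gene IDs) and exon-union lengths came from GENCODE M21 on GRCm38, and coordinates are printed only for RefSeq promoters.

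A robust quasi-likelihood fit of the counts was made in edgeR 4.0.16 (R 4.3.3) over all 18 libraries, with TMM factors, filterByExpr (17174 genes), 3 pairwise contrasts, a test of any difference and Benjamini-Hochberg adjustment, and a call meant an adjusted p under 0.05. The SE beside a log2 difference was derived from this fit, as the absolute log2 difference divided by the square root of its F statistic. The labels name no batch and do not say that each library is 1 animal, so p-values measure the spread between these libraries. No pair of libraries was a repeat (smallest chi-square per degree of freedom 2.82). The members, gene lists and tests were chosen with earlier results of these data known. Lowest, median and highest values were given for the 24 called members with a mean of at least 1 CPM in some model and the smallest p for any difference, means for the others, and 4 genes per pathway list by the same p. The values of 1 member, which is included in the counts and medians, are not reported here. Alternatives were other scalings, filters, tests (DESeq2 1.42.0 and limma 3.58.1 with voom or on the deposited CPM), fits of 12 libraries, libraries left out, and, chosen after seeing the data, the recovered reads. The fit was tested on simulated data.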

Additional observations from a re-analysis of the deposited data

Results flagged for a closer look

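In each model, the highest and the lowest of the 6 libraries were compared with the rest on the log2(CPM + 0.5) scale, and 14 of 105 sets of 6 had a library that stood apart, where chance flags about 1 in 20, or 5.25. Of these, 8 were melanoma replicate 3 and 4 were melanoma replicate 1.

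Melanoma replicate 3, one of the libraries poor in long transcripts, was low for Itga1 (10.7 CPM, against 15.5 to 19 CPM in the other 5), Itga6 (26.6 against 32.0 to 34.2), Lama3 (1.02 against 2.72 to 4.46), Lama5 (3.06 against 9.48 to 11.6), Lamb1 (7.37 against 17.4 to 22.5), Lamb2 (23.2 against 38.9 to 49.4) and Lamc3 (2.27 against 5.11 to 7.51), and high for Itgad (4.78 against 0 to 0.651). Without this library Lamb2, Lamc3, Itga11 and Itgb4 were also called higher in melanoma than in breast, with edgeR log2 differences of 0.62, 0.85, 0.69 and 0.44 (adjusted p = 0.00479, 0.0153, 0.0449 and 0.0319). Breast replicates 18 and 19, also poor in long transcripts, stay in that comparison, and without all 3 such libraries the differences were 0.45, 0.62, 0.85 and 0.32 (adjusted p = 0.0261, 0.0732, 0.0383 and 0.128), so that Lamb2 and Itga11 were called and Lamc3 and Itgb4 were not.

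Melanoma replicate 1 was high for Itga2 (1.76 CPM, against 0.372 to 0.627 CPM in the other 5), Itgal (8.46 against 1.40 to 2.04), Itgax (5.44 against 0.371 to 1.09) and Itgb7 (5.51 against 0.705 to 0.936). Its border macrophage and monocyte markers summed to 49.1 CPM, against 11.8 to 14.7 CPM in the other 5. The other sets were Itgb4 with 39.0 CPM in lung replicate 8, against 24 to 28.7 CPM in the other 5, and Itga10 with 3.0 CPM in breast replicate 15, against 1.37 to 1.81 CPM.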

How the results depend on the processing

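Over 29 other settings, 53 of the 54 member calls in the 3 contrasts were made each time and none reversed. The exception was Itgb7 in melanoma over lung, lost in 18 settings, with log2 differences of -3.11 to -1.26 and adjusted p values of 2.3e-06 to 0.142. The number of members called ranged over 20 to 22 in melanoma over lung, 10 to 14 in breast over lung, 23 to 27 in melanoma over breast and 25 to 27 for any difference. Calls over all genes ranged over 3413 to 5845, 2413 to 4357, 4043 to 8078 and 5406 to 8720 in the same order. The number of genes tested ranged over 13816 to 31189. Of 51 member contrasts that were not called, 10 were called in some setting, most often those of Lamb2. Members higher in melanoma over breast were 3 with all libraries, 5 without melanoma replicate 3 and breast replicates 18 and 19, and 7 without melanoma replicate 3 alone, while higher genes over the whole table were 1676 of 17174, 2605 of 17402 and 4020 of 17342. In the same comparison without 3 libraries the adaptors called in breast over lung were 10, against 6 with all libraries, and calls over all genes were 4357, against 3149. With limma on the deposited CPM the log2 difference of Itga2 was -3.96 in melanoma over lung and -3.94 in melanoma over breast, and that of Itgae in melanoma over breast was -1.53, on the log2(CPM + 0.5) scale. On the reads recovered from CPM (13816 genes tested), 3469, 2719 and 4448 genes were called in melanoma over lung, breast over lung and melanoma over breast, and 5406 for any difference, against 3978, 3149, 4966 and 6146 on the counts. Leaving out melanoma replicate 3 raised the count over all genes in melanoma over breast to 8078, and the cause of these shifts was not tested. No paired analysis was possible because the models share no replicate numbers. The levels of Itgb6, Itgae, Itga2 and Itgad in melanoma rest on 3, 38, 54 and 80 reads over 6 libraries, which limits their precision. Itgb6 and Itgad had 17 and 44 reads in breast and 65 and 63 in lung.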
